A study of Mus musculus with 4 samples.

Results

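The LIN28/let-7 developmental timing pathway was described here through 6 genes, taken by symbol for their place in the pathway, by a rule that uses no value (earlier results of these data were known when they were chosen): Lin28a, Lin28b, Trim71, Dis3l2, Hmga1 and Hmga2. They are 6 of the 24421 gene symbols in the count files, of which 19891 had a count in any library. Counts came from 4 Illumina TruSeq libraries of the R1 mouse embryonic stem cell (ESC) line, for which the labels name no engineered allele. Undiff (n = 2) received no retinoic acid (RA). It is named as maintained ESCs with leukaemia inhibitory factor (LIF) in the methods and as embryoid bodies in the labels. Day4 (n = 2) is embryoid bodies, aggregates of differentiating ESCs, grown for 4 days without LIF and then for 4 days with RA, at 2 µM in the series design and 2 mM in the sample labels. The replicates were grown and treated separately, and both states come from 1 line. LIF withdrawal, time and RA differ together between the states and cannot be told apart, and whether aggregation also differs depends on which account of Undiff holds.

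The pathway was first worked out in the worm, where mutants in lin-28, let-7 and lin-41 repeat or skip developmental stages. let-7 microRNAs are made as long primary transcripts, cut to hairpins by DROSHA and to mature microRNAs by DICER, and then repress mRNAs that carry a match to their seed. LIN28A and LIN28B bind the loop of the let-7 precursor. After binding by LIN28A, TUT4 or TUT7 adds a tail of uridines and the exonuclease DIS3L2 degrades the tailed RNA. Lin28a, Lin28b, Trim71 (the mouse lin-41) and the chromatin proteins Hmga1 and Hmga2 are themselves known let-7 targets. In mouse ESCs LIN28A and TRIM71 are known to be abundant and mature let-7 to be scarce, and let-7 accumulates as the cells differentiate.

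The mature let-7 sequences show why the family is treated as 1 unit, since their seed (bases 2 to 8, in capitals) is shared. Of 12 precursor genes, 11 had a mature sequence with the seed GAGGUAG in the RefSeq table (build GRCm38.p6), as 9 distinct sequences. These are written 5′ to 3′.
let-7a: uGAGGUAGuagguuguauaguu
let-7b: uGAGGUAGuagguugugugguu
let-7c: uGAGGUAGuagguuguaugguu
let-7d: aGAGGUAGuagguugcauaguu
let-7e: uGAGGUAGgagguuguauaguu
let-7f: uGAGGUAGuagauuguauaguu
let-7g: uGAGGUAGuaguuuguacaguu
let-7i: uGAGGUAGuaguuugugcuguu
miR-98: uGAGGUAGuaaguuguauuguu

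The lin-4 family, the other heterochronic microRNA family and also known to repress Lin28, has a different seed, CCCUGAG, shared by 3 genes with 2 distinct mature sequences.
miR-125a-5p: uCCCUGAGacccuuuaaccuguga
miR-125b-5p: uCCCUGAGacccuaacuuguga

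LIN28 proteins are known to hold on to the letters GGAG in the precursor loop. These letters were found, on the strand of the RNA, in the loop of 9 of the 12 let-7 hairpins and not in the loops of let-7b, let-7c-2 and miR-98. The stretches below, with GGAG in capitals, show how the flanks differ while these letters are kept.
let-7a-1 loop: cccaccacugGGAGauaa
let-7d loop: uugcccacaaGGAGuuaa
let-7e loop: agacacccgaGGAGauca
let-7g loop: acccgguacaGGAGaua

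Library totals ranged from 32099074 to 47730944 gene counts, and 3 counts were taken as the floor of detection in a library. Scaled to these totals of gene counts, the floor corresponded to between 0.0629 and 0.0935 CPM. The CPM of genes and of marker sums below are on another scale, as counts scaled to the library's effective total. The replicates of a state differed beyond counting noise, with a chi-square per degree of freedom of 5.71 in Undiff and 3.07 in Day4, and no pair was counted as 1 library. Fragments that fell on no gene made up 12.1% and 13.2% in Undiff and 7.50% and 7.74% in Day4, which sets the states apart, and their part in the results was not tested. For the markers that follow, higher and lower count only differentially expressed genes, as defined in the next paragraph. Of all genes tested 22.2% were higher and 20.6% lower in this sense. All 10 pluripotent cell markers were lower in Day4, with a summed level of 5003 to 5031 CPM in Undiff and 21.1 to 26.7 CPM in Day4. The summed level of 10 endoderm markers was 38.7 to 45.4 CPM in Undiff and 546 to 553 CPM in Day4 (7 higher, 2 lower). Most of this Day4 sum was Gata4 (255 and 259 CPM) and Gata6 (282 and 269 CPM). Cubn and Amn were the 2 lower ones, and Afp was at 0 in both Undiff libraries. Of 10 fibroblast markers 8 were higher and 2 lower (81.3 to 89.4 CPM and 1668 to 1811 CPM), and most of their Day4 sum was Col3a1 (1074 and 972 CPM). Among 10 mesoderm and cardiac markers 4 were higher and 3 lower (33.5 to 34.6 CPM and 186 to 189 CPM). Most of that Day4 sum was Kdr (115 and 120 CPM) and Tcf21 (55.9 and 57.1 CPM). Among 10 neural markers 3 were higher and 5 lower (352 to 358 CPM and 172 to 184 CPM). Markers of several cell types thus moved together with the pathway, and their part in each result below was not tested. In such bulk libraries fewer cells of a type and less RNA per cell cannot be told apart.

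The comparison of Day4 with Undiff asked which genes change as ESCs differentiate. Differentially expressed genes (DEGs) were those with an adjusted p of 0.05 or less in edgeR's quasi-likelihood test, a log2 fold change of 1 or more in either direction, and 5 or more normalized counts on average. Of the 6 members, 5 passed the minimum count. Lin28a, Lin28b and Trim71 were DEGs lower in Day4, Dis3l2 and Hmga2 were DEGs higher in Day4, and Hmga1 was not called. Across all 19891 genes tested 42.8% were DEGs, 22.2% higher and 20.6% lower. Only the 16472 genes that passed the minimum count could be called, and they held all 8521 DEGs. A call by itself therefore sets a member apart little in this comparison. The sizes differed more. Among the 16472 genes that passed the minimum count, 2.08% had a lower log2 fold change than Lin28a and 3.02% a lower one than Trim71, and 5.51% had a higher one than Hmga2. Lin28b and Dis3l2 were less extreme, with 18.0% of genes lower than Lin28b and 26.0% higher than Dis3l2. The median log2 fold change of all genes tested was -0.03.

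**Figure D1:**
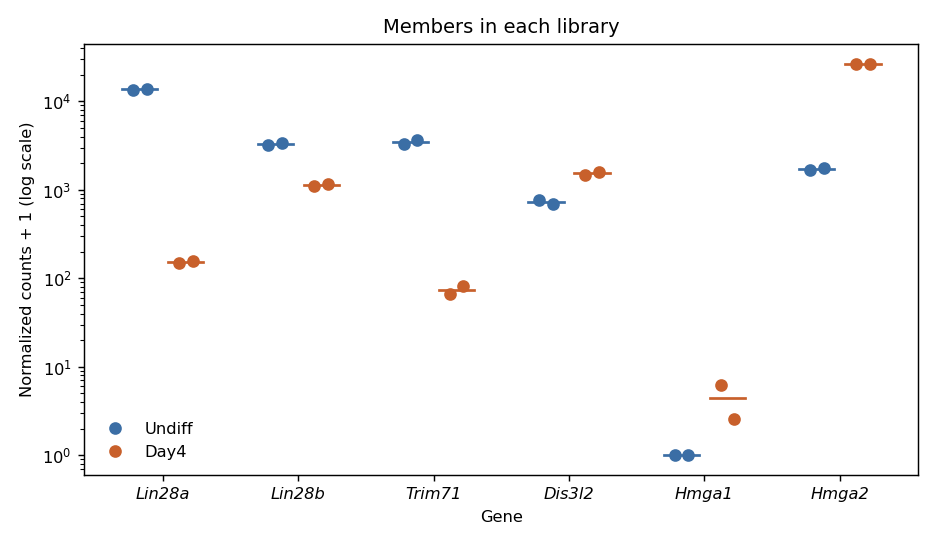
Normalized counts plus 1 (log axis) of the 6 members, with 1 point per library for Undiff and Day4 (n = 2 each) and a line at the mean of each state. Lin28a, Lin28b and Trim71 lie lower in Day4, Dis3l2 and Hmga2 lie higher, and Hmga1 is at or near 0 in every library.

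Lin28a, the RNA-binding protein of the pair that is most known in ESCs, lies at chr4:134003330-134018841 on the minus strand (GRCm38, the same assembly as mm10). It had 12990 and 11644 counts in Undiff and 140 and 203 counts in Day4. These correspond to 13537 and 13932 normalized counts in Undiff and 146 and 156 in Day4, and the states did not overlap. The mean fell from 13734 ± 280 (SD, n = 2) to 151 ± 6.80 (SD, n = 2) normalized counts, 90.9-fold lower, with a log2 fold change of -6.50 (SE 0.06, adjusted p = 1.9e-16 by edgeR). Sorted by mean CPM, Lin28a moved from position 448 in Undiff to position 11332 in Day4 among the 16472 genes.

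Lin28b, its paralogue, which carries the same cold shock domain and zinc knuckles, lies at chr10:45376620-45486395 on the minus strand. Its counts were 3062 and 2838 in Undiff and 1066 and 1519 in Day4. Both Day4 libraries were below both Undiff libraries after scaling, with 3191 and 3396 normalized counts in Undiff and 1114 and 1166 in Day4. The decrease was 2.89-fold (log2 fold change -1.53, SE 0.06, adjusted p = 1.7e-11 by edgeR), far smaller than that of Lin28a.

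Because both proteins act on the same let-7 precursors, their transcripts were also set side by side per length, as CPM per kb of exon (the union of exons in GENCODE vM21). Lin28a was at 90.5 and 93.1 CPM per kb in Undiff and at 0.978 and 1.04 in Day4. Lin28b was at 9.40 and 10.01 CPM per kb in Undiff and at 3.28 and 3.44 in Day4. Their order was thus opposite in the 2 states, with Lin28a the higher in both Undiff libraries and Lin28b the higher in both Day4 libraries. The share of Lin28b in the sum of both was 9.41% and 9.70% in Undiff and 77.0% and 76.7% in Day4, a difference of 67.3 percentage points (exact two-sided permutation p = 0.333, the smallest that 2 against 2 libraries can give). The sum itself was 23.2-fold lower in Day4, at 102 ± 2.30 CPM per kb (SD, n = 2) in Undiff and 4.37 ± 0.155 (SD, n = 2) in Day4. The larger share of Lin28b in Day4 was therefore part of a much smaller total.

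**Figure D2:**
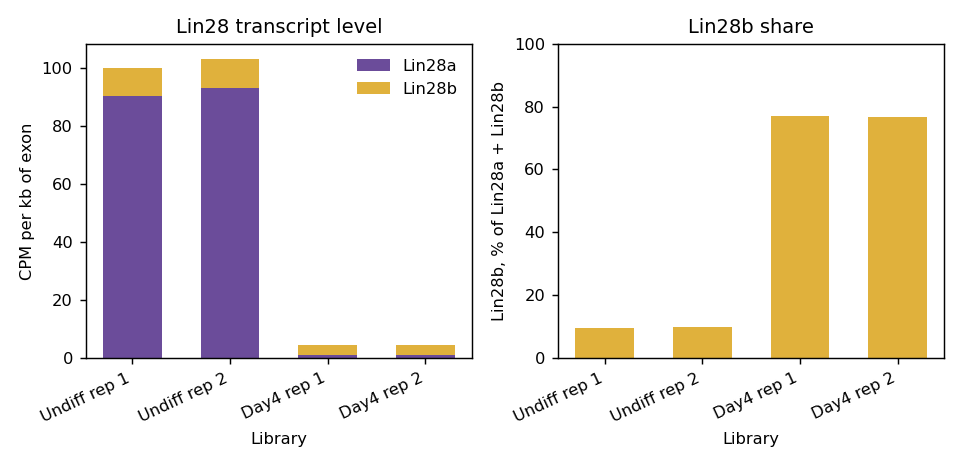
Lin28 transcripts in each library, as stacked bars of Lin28a and Lin28b in CPM per kb of exon (left) and as the percent of their sum that is Lin28b (right), with 1 bar per library. The mean sum is 102 in Undiff and 4.37 in Day4, while the mean Lin28b share is 9.56% in Undiff and 76.9% in Day4.

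Trim71, a TRIM-NHL protein that binds and represses mRNAs and is a let-7 target, lies at chr9:114507133-114564369 on the minus strand. Counts were 3174 and 3055 in Undiff and 63 and 104 in Day4. On the scale of normalized counts this was 3308 and 3655 against 65.8 and 79.9, with no overlap. The mean was 47.8-fold lower in Day4, 3481 ± 246 (SD, n = 2) against 72.8 ± 9.93 (SD, n = 2), with a log2 fold change of -5.56 (SE 0.10, adjusted p = 1.6e-14 by edgeR). The fold changes of Trim71 and Lin28a were thus both many times larger than the 2.89-fold decrease of Lin28b.

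Dis3l2, the exonuclease that degrades uridylated pre-let-7, lies at chr1:86703808-87050095 on the plus strand. It moved the other way, from 732 and 583 counts in Undiff to 1417 and 2064 in Day4. Normalized counts were 763 and 698 in Undiff and 1480 and 1585 in Day4, and the states did not overlap. The rise was 2.10-fold (log2 fold change 1.07, SE 0.07, adjusted p = 5.4e-09 by edgeR) and stood just past the fold threshold. Without Day4 replicate 2 the log2 fold change was 0.99 and the gene was no longer a DEG, and a test against a fold change of 2 (glmTreat in edgeR) gave an adjusted p of 0.13.

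Hmga2, an architectural chromatin protein and the classic let-7 target, lies at chr10:120361275-120476469 on the minus strand. Its counts were 1592 and 1465 in Undiff and 25483 and 34875 in Day4. The replicates lay close together after scaling, at 1659 and 1753 normalized counts in Undiff and 26620 and 26776 in Day4. The rise was 15.6-fold (log2 fold change 3.97, SE 0.05, adjusted p = 6.4e-16 by edgeR). Hmga2 moved from position 4859 by mean CPM in Undiff to position 121 in Day4. With 105 ± 0.436 CPM per kb (SD, n = 2) it was the highest there of the members other than Hmga1, whose level is uncertain. A pseudogene with its own row, Hmga2-ps1, had 27 and 17 counts in Undiff and 30 and 63 in Day4.

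Hmga1, the other member of the HMGA family, lies at chr17:27556497-27563674 on the plus strand. It had 0 counts in both Undiff libraries, which allows up to 3 counts in each, and 5 and 2 counts in Day4. It did not pass the minimum count, and no fold change is given. Fragments that align to more than 1 place had been left out of the counts, and AI413582, a gene of the count files, overlaps Hmga1 on the opposite strand. The level of Hmga1 in these cells is therefore uncertain, and what kept its count near 0 was not tested. The share of Hmga2 among HMGA transcripts, between 99.9% and 100% in all libraries, carries the same doubt. No exon of the other 5 members overlapped another gene of the count files. Exons of Lin28a, Trim71 and Hmga2 do overlap genes on the opposite strand that have no row there. These are Gm13061, C130032M10Rik and 1700006J14Rik, in that order. Whether fragments of such genes were counted for the members was not tested.

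In Undiff the order of the members per length was Lin28a (91.8 ± 1.87 CPM per kb, SD, n = 2), then Trim71 (9.97 ± 0.704), Lin28b (9.70 ± 0.427), Hmga2 (6.73 ± 0.262), Dis3l2 (2.19 ± 0.138) and Hmga1 (0). Trim71 and Lin28b overlapped between libraries and are not ordered. In Day4 the order was Hmga2, Dis3l2 (4.6 ± 0.222 CPM per kb), Lin28b (3.36 ± 0.110), Lin28a (1.01 ± 0.0454), Trim71 (0.208 ± 0.0284) and Hmga1 (0.0425 ± 0.0328), and no neighbours overlapped. The order in Undiff depends on the length used. With the longest transcript in place of the union of exons, Lin28b (15.8 and 16.8 CPM per kb) and Hmga2 (11.6 and 12.3) both stood above Trim71 (9.47 and 10.5), with no overlap. By either length, and leaving Hmga1 aside, Lin28a was the highest in Undiff and Hmga2 in Day4. The place of Hmga1 in both orders is that of its counts only, since its level is uncertain.

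The genes with the most similar pattern were sought among 10068 genes with a mean of at least 10 CPM, as the root mean square distance on the log2 scale over the 4 libraries after centring each gene. With only 2 states this measure mainly finds genes with the same log2 fold change. For Lin28a they were Fgf15 (0.046), Nptx2 (0.073) and Dppa4 (0.079), and for Trim71 they were Laptm5 (0.052), Gldc (0.057) and Slc39a4 (0.081). Lin28b was nearest to Hps3 (0.010), Jmjd1c (0.012) and Znrd1as (0.016). Dis3l2 was near to Gpatch2l (0.010) and Hsdl1 (0.017), and Hmga2 to Wls (0.026), Dgkk (0.029) and Bcl9l (0.039).

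Mature microRNAs were not measured by these libraries, and the counts on let-7 precursor genes are of longer RNA that covers them. Of 12 let-7 precursor genes, 7 had a count in any library and 5 (let-7a-2, let-7b, let-7c-1, let-7c-2 and let-7f-2) had none. Mirlet7d was the only one with at least 10 counts in a library, with 21 and 20 counts in Undiff and 12 and 7 in Day4 (log2 fold change -1.43, SE 0.44, adjusted p = 0.010 by edgeR). This call was lost without Day4 replicate 2 and with DESeq2. Mirlet7e went the other way, with 0 and 0 counts in Undiff and 3 and 5 in Day4 (adjusted p = 0.022 by edgeR), and was not called because its mean count was below 5. The others ranged from 0 to 7 counts. In the lin-4 family the highest was Mir125a, with 0 and 0 counts in Undiff and 9 and 9 in Day4. Its adjusted p was 0.0023 by edgeR, and it was at least 2.43-fold higher against the floor. It was not called because its mean count was below 5. Mir125a lies in an exon of Spaca6, a gene of the count files, and the part of this overlap in its count was not tested.

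Genes whose transcripts span these precursors gave far more counts. Of the host genes listed, 3 had a row in the count files. Mir99ahg, the host of let-7c-1 and miR-125b-2 in its introns (chr16:77236317-77773427, plus strand), had 0 counts in both Undiff libraries and 106 and 143 counts in Day4. It was a DEG, at least 32.8-fold higher in Day4 against the floor of 3 counts per library (adjusted p = 1.9e-08 by edgeR). Huwe1, a ubiquitin ligase gene that holds let-7f-2 and miR-98 in its introns, had a log2 fold change of -0.86 (SE 0.04), and Wdr82, which holds let-7g, one of 0.32 (SE 0.04), and neither was a DEG.

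All genes of the count files that span a let-7 or lin-4 family precursor on the same strand were then sought by position in GENCODE, a step chosen after values had been seen, and 2 more were found. The noncoding gene 3110039I08Rik (chr9:41327077-41716994, plus strand) holds let-7a-2 and miR-125b-1 in introns. It had 32 and 26 counts in Undiff and 1073 and 1589 in Day4, a 36.3-fold rise (log2 fold change 5.18, SE 0.13, adjusted p = 3.1e-13 by edgeR). Spaca6 (chr17:17827158-17843009, plus strand) holds let-7e in an intron and miR-125a in an exon. It had 59 and 38 counts in Undiff and 358 and 484 in Day4, a 6.97-fold rise (log2 fold change 2.78, SE 0.14, adjusted p = 6.4e-10 by edgeR). The 3 spanning genes called higher each hold a let-7 and a lin-4 family precursor. Huwe1 and Wdr82, which hold let-7 family precursors without a lin-4 family member, were not called. Over all genes tested 22.2% were called higher. No gene with a row spanned let-7a-1, let-7b, let-7c-2, let-7d, let-7f-1 or let-7i. The same-strand genes that overlap these precursors in GENCODE, 6720427I07Rik, Lncppara and D630033A02Rik, have no row and were not measured. The spanning genes with a row are few and 2 were found after values had been seen, so whether precursor content goes with the change was not tested. These counts do not say how much precursor or mature microRNA was made.

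**Figure D3:**
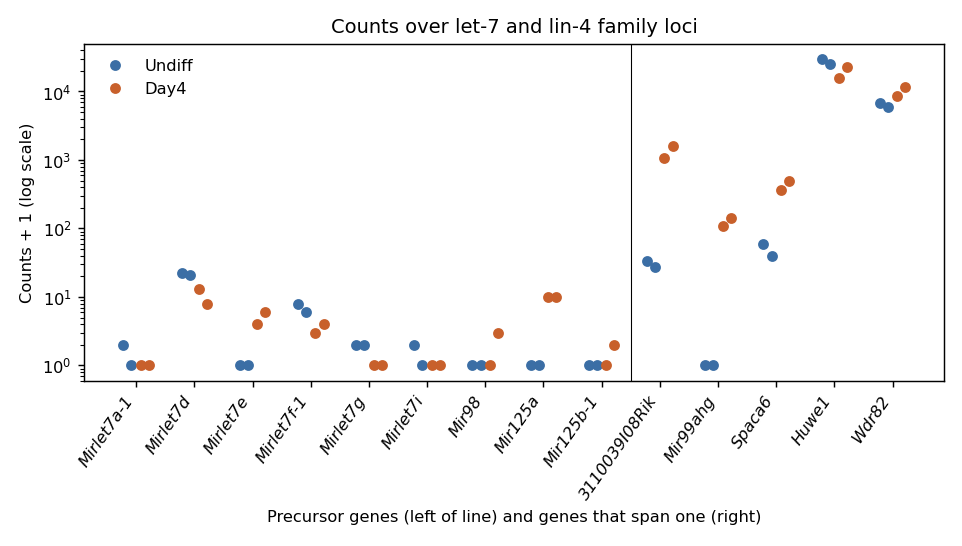
Counts plus 1 (log axis) of let-7 and lin-4 family precursor genes with a count in any library (left of the line) and of the genes that span a precursor (right), with 1 point per library for Undiff and Day4. The precursor genes have at most 21 counts, while 3110039I08Rik, Mir99ahg and Spaca6 are higher in both Day4 libraries.

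Of 21 genes for making, tailing and holding back let-7, all had a row, 4 were DEGs higher in Day4, 2 were DEGs lower and 15 were not called. The 28.6% called stand beside 42.8% of all genes tested. All 21 passed the minimum count, and of the 16472 genes that did so 8521 were DEGs. The median log2 fold change of the list was -0.05 beside -0.03 over all genes. Higher were Msi1, an RNA-binding protein of neural progenitors that is known to work with LIN28 (log2 fold change 2.00, SE 0.08), Prkra, a DICER partner (1.71, SE 0.07), Zcchc11, which encodes the uridyl transferase TUT4 (1.51, SE 0.05), and Ago4, an Argonaute (1.18, SE 0.15). Lower were Trim25, a cofactor of the uridylation step (log2 fold change -1.40, SE 0.04), and Hnrnpa1, which is known to bind pri-let-7a (-1.20, SE 0.13), a gene with processed copies whose count is uncertain under unique alignment. Zcchc11 had 3124 and 2829 normalized counts in Undiff and 8423 and 8585 in Day4, with no overlap. The uridyl transferase and the exonuclease of the degradation step were thus both higher in Day4, where the LIN28 transcripts were lower. The core enzymes were not called, with log2 fold changes of -0.48 for Drosha, -0.30 for Dgcr8, -0.53 for Xpo5 and -0.37 for Dicer1, and so was Zcchc6 (TUT7) at 0.73.

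Among 26 genes long described as let-7 targets, other than the members, 10 were DEGs higher in Day4, 8 were DEGs lower and 8 were not called, with a median log2 fold change of 0.47. Called genes were 69.2% of this list beside 42.8% of all genes tested, which had a median of -0.03, and they lay in both directions. All 26 passed the minimum count, and of the 16472 genes that did so 8521 were DEGs, a larger share than 42.8%. Without Col1a2 and Col3a1, which are also fibroblast markers, 8 were higher and 8 lower, with a median of 0.40. Acvr1c, an activin-type receptor, had 0 counts in both Undiff libraries and 116 and 77.5 normalized counts in Day4, at least 28.8-fold higher against the floor. The other largest rises were of the collagens Col3a1 (log2 fold change 9.14, SE 0.09) and Col1a2 (4.38, SE 0.07) and of the cyclin Ccnd2 (2.91, SE 0.06).

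The targets that fell most were Nr6a1, an orphan nuclear receptor (log2 fold change -2.65, SE 0.06), Igf2bp1, an oncofetal mRNA-binding protein (-2.03, SE 0.05), the cyclin Ccnd1 (-1.84, SE 0.05) and its partner kinase Cdk6 (-1.50, SE 0.08). Nr6a1 had 3544 and 3501 normalized counts in Undiff and 539 and 579 in Day4. Igf2bp1 had 21102 and 22600 in Undiff and 5150 and 5526 in Day4. Within the Igf2bp family Igf2bp2 was a DEG in the other direction (2.29-fold higher) and Igf2bp3 was not called (log2 fold change 0.81), and within the D cyclins Ccnd1 and Ccnd2 moved apart.

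For Trim71 the mRNAs that it is known to repress were counted in the same way. Of 7 listed, 3 were DEGs higher in Day4, 2 were DEGs lower and 2 were not called, with a median log2 fold change of 0.57 beside -0.03 over all genes. The 71.4% called, of 7 genes, stand beside 42.8% of all genes tested. All 7 passed the minimum count, and of the 16472 genes that did so 8521 were DEGs. Higher were Plxnb2, a semaphorin receptor (log2 fold change 1.80, SE 0.05), the pocket protein Rbl2 (1.70, SE 0.07) and the splicing regulator Mbnl1 (1.58, SE 0.07). Inhbb, an activin subunit, was lower (-5.80, SE 0.20), with 506 and 523 counts in Undiff and 8 and 15 in Day4, and so was the transcription factor Egr1 (-1.30, SE 0.07). The cell cycle inhibitor Cdkn1a was at 0.21 and Rbl1 at 0.57, and neither was a DEG.

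Relatives of the members by protein family were looked at to see where the members stand among them. Of 11, 2 were DEGs higher and 4 lower (54.5% called, beside 42.8% of all genes tested), with a median log2 fold change of -0.34 beside -0.03. All 11 passed the minimum count, and of the 16472 genes that did so 8521 were DEGs. Among cold shock domain genes related to Lin28, Csdc2 was higher (log2 fold change 3.31, SE 0.11), and Ybx2 (-2.01, SE 0.11) and Ybx3 (-1.63, SE 0.04) were lower. Among TRIM-NHL genes related to Trim71, Trim32 was higher (1.86, SE 0.06) and Trim2 lower (-1.46, SE 0.09). Dis3, the nuclear exosome relative of Dis3l2, fell by 1.88 on the log2 scale (SE 0.05) while Dis3l2 rose.

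**Figure D4:**
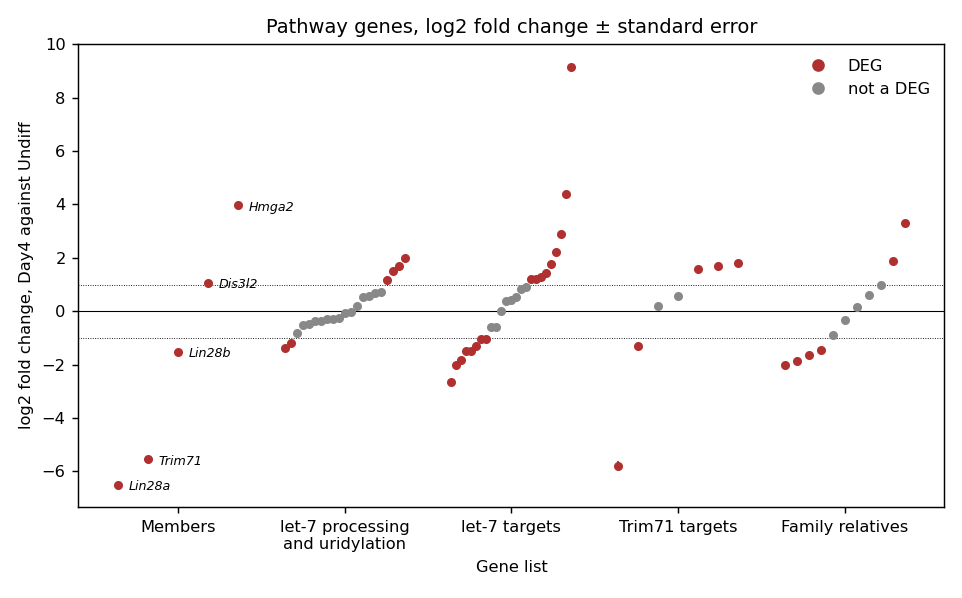
Log2 fold changes (Day4 against Undiff, with bars of ± 1 standard error that are mostly smaller than the points) of the members and of 4 lists of pathway genes, with DEGs in red and other genes in grey and dotted lines at the fold threshold. Genes at 0 in Undiff (Hmga1 and Acvr1c) are not drawn, and each list holds genes above and below 0.

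The let-7 seed pairs with the letters CTACCTC in a 3′ untranslated region (UTR). They were searched on the transcript strand only, in the longest 3′ UTR of each protein-coding gene in GENCODE vM21, and 1897 of 21020 genes (9.02%) held at least 1 match. The members held 2 in Lin28a, 4 in Lin28b, 4 in Trim71, 1 in Hmga1, 4 in Hmga2 and none in the 350 bases of Dis3l2. Long UTRs hold more matches, so each member was set beside genes with a UTR of similar length (within 20%), itself included. Of these, 4 matches or more were found in 3 of 2245 genes for Hmga2, in 3 of 1271 for Lin28b and in 4 of 793 for Trim71, and 2 or more in 51 of 2429 for Lin28a. At least 1 match was found in 8.07% of genes with a UTR like that of Hmga1.

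The first site of each member that has one, and the second of Lin28a and Trim71, are shown with the match in capitals, on the strand of the transcript. In each the bases before the match would face the rest of the microRNA.
Lin28a, chr4:134005189-134005210: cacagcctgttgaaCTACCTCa
Lin28a, chr4:134004551-134004572: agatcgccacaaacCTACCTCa
Lin28b, chr10:45381022-45381043: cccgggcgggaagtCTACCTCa
Trim71, chr9:114512472-114512493: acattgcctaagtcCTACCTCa
Trim71, chr9:114512376-114512397: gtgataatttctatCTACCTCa
Hmga1, chr17:27563278-27563299: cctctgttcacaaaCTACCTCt
Hmga2, chr10:120364224-120364245: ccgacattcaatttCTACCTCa

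A match followed by A on the transcript, a form known to favour repression, made up all 4 in Trim71 and both in Lin28a, and 1 of 4 in each of Lin28b and Hmga2. The first match lay 36 bases into the UTR of Lin28b, 58 into that of Hmga2, 166 into that of Trim71, 801 into that of Hmga1 and 909 into that of Lin28a. Hmga2, with 4 matches, rose 15.6-fold, and Trim71, with 4, was 47.8-fold lower, so the number of matches did not go with 1 direction among the members. Of the 26 other targets described above, 6 held no match, among them Ccnd1 and Cdk6, which were lower in Day4, and Ccnd2, which was higher (5 lower and 1 higher in all). Of the 14 with 1 match, 7 were higher, 1 was lower and 6 were not called. The fibroblast markers Col1a2 and Col3a1 are among these 7. The 6 with at least 2 matches were also divided, with Acvr1c and Bach1 higher, Nr6a1 (8 matches) and Igf2bp1 (4 matches) lower, and Arid3a and Igf1r not called. Over all genes tested 22.2% were called higher and 20.6% lower. The groups are small, and whether the number of matches goes with the change was not tested.

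Among 17040 genes tested that have a 3′ UTR, the 1663 with at least 1 match were DEGs higher in 27.1% and lower in 19.1%, with a median log2 fold change of 0.14. Without a match these values were 23.0%, 21.3% and -0.01 over 15377 genes. The 26 genes with at least 3 matches were higher in 23.1% and lower in 23.1% (6 genes each), with a median of 0.00309. Lin28b, Trim71, Hmga2, Nr6a1 and Igf2bp1, described above, are among these genes. Genes with a match had longer UTRs (median 2271 against 944 bases), and the part of UTR length in the difference was not tested. A match is a description of the sequence and does not show that let-7 acts on the gene in these cells.

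**Figure D5:**
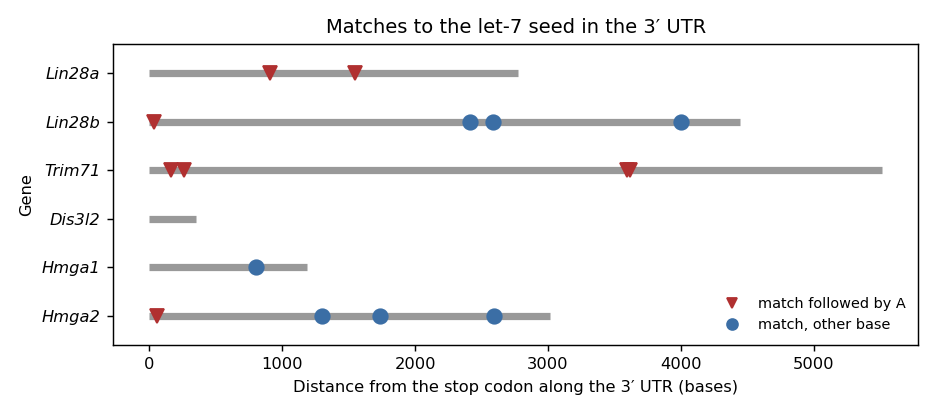
The 3′ UTR of each member as a grey line in bases from the stop codon, with each match to the let-7 seed marked, as a red triangle where an A follows and as a blue circle otherwise. Trim71, Lin28b and Hmga2 have 4 matches each, Lin28a has 2, Hmga1 has 1 and the short UTR of Dis3l2 has none.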

How the data were processed

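RNA of R1 mouse ESCs in 2 states (Undiff and Day4, 2 biological replicates each) had been sequenced as TruSeq libraries. After trimming (cutadapt) and alignment to mm10 (STAR, 2.4.2a in the submitters' processing notes), the authors counted uniquely aligned fragments per gene symbol with htseq-count. The deposited values are these raw counts, with no normalization. The methods state that strandedness was taken into account, with Direct RNA as the strand-specific kind, and do not name the option for TruSeq gene counts. Rows for fragments on no gene (7.50% to 13.2%) or on several genes (1.84% to 1.91%) were left out of library sizes and tests.

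All genes with a count entered the quasi-likelihood test of edgeR 4.0.16 in R 4.3.3 (TMM factors, glmQLFit with legacy=FALSE, glmQLFTest), with Benjamini-Hochberg adjustment over 19891 genes and the DEG thresholds of the study (adjusted p up to 0.05, log2 fold change of 1 or more in size, mean normalized count from 5). The study used DESeq2, and DESeq2 1.42.0 was run as an alternative. For normalized counts, each library was brought to the geometric mean of the TMM-scaled totals. CPM are relative to the TMM-scaled (effective) total of the library, except that the floor in CPM is relative to its total of gene counts. The standard error is the log2 fold change divided by the square root of F. A state at the floor (3 counts per library) gave a lower bound only. The script was tested on simulated data. Positions, exon lengths and UTRs are from GENCODE vM21, and microRNA sequences from RefSeq, where all 12 let-7 hairpins were found. Other alternatives were other scaling, filters, thinning, a replicate block, and leaving out each replicate.

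The members and gene lists were chosen with earlier results of these data known. Named genes are all members, up to 4 DEGs per list and direction with the largest change, all DEGs of lists of up to 12 genes, precursor genes with at least 10 counts, and the 3 genes nearest to each member, of which 1 is not reported here. Core let-7 enzymes, other target genes and precursor genes below that count were named beyond this rule, after their values were seen.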

Additional observations from a re-analysis of the deposited data

How the results depend on the processing

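Of the 6 log2 fold changes, those of Lin28a (-6.59 to -6.43), Lin28b (-1.59 to -1.46), Trim71 (-5.75 to -5.44) and Hmga2 (3.93 to 4.04) kept their direction and their call under all alternatives run. Dis3l2, at 1.07, lost its call under glmTreat (log2 fold change 1.07, adjusted p = 0.13 by edgeR) and without Day4 replicate 2, with values from 0.99 to 1.14 when each replicate was left out, since it stands at the fold threshold. Members called higher were then 1 under glmTreat and 1 to 2 when a replicate was left out. With no minimum count Hmga1 was called on 5 and 2 counts (fitted log2 fold change 4.71, which depends on the prior count and is no bound), as were 1 let-7 precursor and 1 lin-4 family precursor. The 1 let-7 precursor called lower, Mirlet7d, went to 0 in both DESeq2 runs, to 0 under glmTreat and to 0 to 1 when a replicate was left out, and lin-4 family precursors called higher ranged from 0 to 1 there. Of the processing list, 1 gene was called lower under glmTreat. The difference in the Lin28b share was 69.0 percentage points without division by length, 69.6 with the longest transcript, and 67.2 to 67.5 when a replicate was left out. No shared effect of the replicate number was seen (same-numbered deviations correlated at -0.0073 over 16472 genes). With 1 replicate difference per state this cannot show whether the samples are paired. With a replicate block 8515 genes were called beside 8521. DESeq2 with the settings of the study called 8114. The legacy option of glmQLFit, added after seeing the data, gave 8518. Scaling by library totals moved the median log2 fold change of genes past the minimum count from 0.03 to 0.10 and turned no member around. Most precursor genes are at or near the floor, so that differences between their states were not detectable at this depth.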
